A study of Mus musculus with 2 samples.

Results

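The oligoadenylate synthetase family comprises 7 listed genes here, Oas1a, Oas1b, Oas1g, Oas2, Oas3, Oasl1 and Oasl2, chosen by name as members of 1 enzyme family with their values on these arrays already known. Probes were assigned to a gene through the RefSeq accession of the probe, and 6 of the 7 genes had a probe, 8 probes in all, among 22909 genes that could be named. All 6 had a value, as did 14668 genes in total. Oas1b, which the gene table lists as a transcribed pseudogene, was matched by no probe and has no value. Because the genes were picked with their ratios in view, the values below are a description of the arrays and no test is attached to them.

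To compare the colon with and without epithelial EP4, a receptor for prostaglandin E2 encoded by Ptger4, total RNA of whole colon was hybridized to 1-colour (Cy3) Agilent mouse arrays, 1 array for Villin-Cre control mice and 1 for Villin-Cre; EP4flox/flox mice (EP4 cKO). All mice were C57BL/6 and, per the study's methods, 8 weeks old, and both genotypes carry the Villin-Cre transgene, whose villin promoter drives Cre recombinase in the intestinal epithelium, and by the labels the genotypes differ in the floxed Ptger4 alleles. Per the labels, RNA from 3 pools of colon was combined for each array, so no spread between mice can be given and every statement concerns this pair of arrays. In such bulk RNA, more cells that express a gene and more RNA per cell cannot be told apart.

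Oligoadenylate synthetases are interferon-induced enzymes that bind double-stranded RNA and join ATP into short chains of adenylates with 2′-5′ bonds, called 2-5A. The chains act as a second messenger of the antiviral response and are short-lived, since phosphodiesterases degrade them. Type I and type III interferons act on the genes through a complex that includes STAT2 and IRF9 and binds a promoter motif called the interferon-stimulated response element (ISRE), while interferon-gamma acts through another motif, the gamma activated site (GAS).

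Both arrays lay on the same slide and were scanned together. The signals given are background-subtracted intensities scaled so that the trimmed mean of each array is 2500, with an error (±) that the scanner software assigns to the spot and that does not cover the spread between mice. The log2 ratio is that of the array labelled EP4 cKO over the array labelled Villin-Cre. A spot is well above background by the flag of that software. Where this held on 1 array only, the dim value was replaced by the floor of that array, its lowest signal well above background (125 in Villin-Cre and 57.8 in EP4 cKO), unless it was itself above the floor, and the fold is a bound. Ptger4 itself was not clearly lower on the array labelled EP4 cKO: its brighter probe had 6227 ± 624 in Villin-Cre and 5661 ± 566 in EP4 cKO, and its dimmer probe 393 ± 49.4 and 592 ± 60.8. Directions therefore rest on the labels of the arrays, and where the probes lie relative to the removed part of the gene was not analysed here.

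All 6 oligoadenylate synthetase genes with a value were over 2-fold higher in the array labelled EP4 cKO. Among all 14668 genes with a value, 717 (4.89%) were over 2-fold higher and 1171 (7.98%) were over 2-fold lower. Among the 12808 genes measured well above background on both arrays, 4.05% were over 2-fold higher. The median log2 ratio of the 6 genes was 3.83, against -0.10 over all genes, and 3.19 over the 5 genes measured on both arrays. The ratios ranged from 1.60 for Oas1a to 6.07 for Oas2. Since the genes were chosen with these ratios known, nothing is read from the count. The split of all genes depended on the processing. With scaling to the 75th percentile, 6.42% were over 2-fold higher and 6.28% lower. These shares were 4.19% and 2.66% after normexp background correction with quantile normalization, and 7.80% and 4.96% after loess. They were 6.18% and 6.53% with a trimmed mean over all spots, and 39.1% and 2.30% with scaling to control spots. With dim values kept as measured they were 5.12% and 31.7%, but of 22909 genes, since genes dim on both arrays then had a value.

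**Figure D1:**
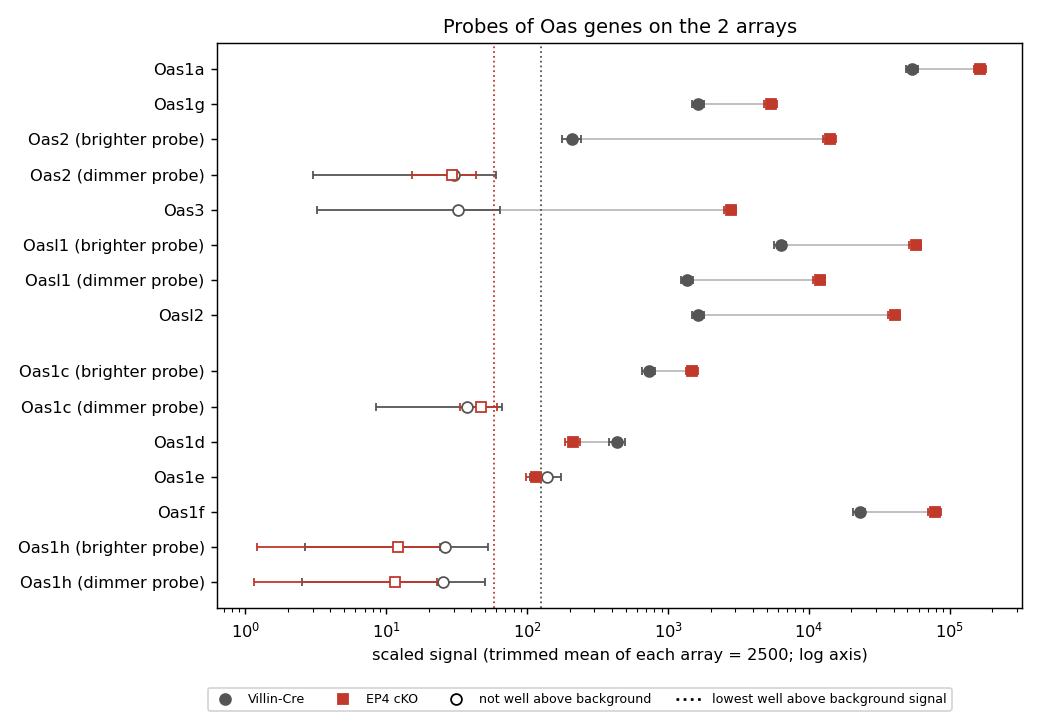
Scaled signal (log axis) of every probe of the Oas genes on the array labelled Villin-Cre (grey circles) and the array labelled EP4 cKO (red squares), with open symbols where the spot was not well above background. Bars show the error of the scanner software, with the lower end cropped where it would near 0 on the log axis, and dotted lines mark the lowest signal well above background on each array (125 and 57.8). Every probe of the listed genes but the dimmer Oas2 probe was well above background in EP4 cKO and lay to the right of its Villin-Cre signal.

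Oas1a and Oas1g encode small synthetases with a single OAS unit. Oas1a had a signal of 53960 ± 5396 in Villin-Cre and 163717 ± 16372 in EP4 cKO. Its signal was well above background on both arrays and 3.03-fold higher in EP4 cKO, a log2 ratio of 1.60 with a software error of 0.20. Oas1g had 1636 ± 167 in Villin-Cre and 5353 ± 535 in EP4 cKO, which was 3.27-fold higher, a log2 ratio of 1.71 with an error of 0.21. The ratios of both genes differed by 0.11 on the log2 scale, less than the combined software error of 0.29. Oas1a ranked 318th and Oas1g 282nd from the top among the ratios of all genes. The Oas1 genes are related copies, and since the probe sequences were not analysed here, whether a probe named for one also takes up RNA of another was not tested.

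The promoter windows of Oas1a and Oas1g are shown because both genes are listed and share their sequence around the start. The windows span 250 bases before to 50 bases after the start of the gene (300 bases), were taken from RefSeq (GRCm38.p6) and are written 5′ to 3′ on the strand of the gene. Capitals mark matches to the ISRE core GAAANNGAAA, searched on both strands, with overlapping matches joined. Oas1a (chr5:120907476-120907775, minus strand) and Oas1g (chr5:120887564-120887863, minus strand) each held 2 overlapping matches just before the start.

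Oas1a: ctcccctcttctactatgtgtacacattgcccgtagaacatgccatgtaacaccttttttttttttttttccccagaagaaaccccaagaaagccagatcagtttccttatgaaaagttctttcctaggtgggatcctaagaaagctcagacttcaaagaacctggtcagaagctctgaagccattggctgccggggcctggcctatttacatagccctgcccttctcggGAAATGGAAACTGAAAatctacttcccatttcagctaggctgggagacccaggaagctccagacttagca

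Oas1g: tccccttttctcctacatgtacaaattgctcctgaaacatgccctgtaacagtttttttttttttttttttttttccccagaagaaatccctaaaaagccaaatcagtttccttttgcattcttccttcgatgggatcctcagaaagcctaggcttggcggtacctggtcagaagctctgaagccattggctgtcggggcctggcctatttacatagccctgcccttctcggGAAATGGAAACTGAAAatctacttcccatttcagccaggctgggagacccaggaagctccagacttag

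The joined match reads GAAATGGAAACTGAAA in both genes (16 bases). It lies within the longest run that both windows share without a difference, 73 bases long, which begins at position -58 of Oas1a and position -56 of Oas1g, counted from the start.

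Shared run: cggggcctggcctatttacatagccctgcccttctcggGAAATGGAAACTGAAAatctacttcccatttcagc

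The same 16 bases were found on either strand in 7 of 32851 promoter windows (0.0213%), which belong to 5 genes: Oas1a, Oas1g, Oas1c, Apol9a and Apol9b. Oas1c, an Oas1 copy outside the list, carries them on the opposite strand (chr5:120812465-120812764, minus strand).

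Oas1c: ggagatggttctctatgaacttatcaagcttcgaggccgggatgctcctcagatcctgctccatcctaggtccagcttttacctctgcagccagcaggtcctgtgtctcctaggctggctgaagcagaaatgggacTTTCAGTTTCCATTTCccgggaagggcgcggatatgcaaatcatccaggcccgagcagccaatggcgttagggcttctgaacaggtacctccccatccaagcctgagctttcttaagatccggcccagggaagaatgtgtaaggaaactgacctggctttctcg

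All 5 genes had a value, each over 2-fold higher in EP4 cKO. Oas1c had a signal of 733 ± 79.5 in Villin-Cre and 1486 ± 149 in EP4 cKO, a log2 ratio of 1.02 that was 0.98 after normexp background correction with quantile normalization, thus within 2-fold. Apol9a and Apol9b, interferon-inducible apolipoprotein L genes that are close copies of each other, had log2 ratios of 5.40 (1203 and 50622) and 5.79 (828 and 45776). Thus genes with the same 16 bases had ratios from 1.02 to 5.79. Oas1f and Oas1h, whose windows are also in the table, held no match to the ISRE core, and Oas1f had a log2 ratio of 1.77, close to those of Oas1a and Oas1g. The 16 bases were picked from the Oas1a window after its ratio was known, and a match is a description of the letters and not of a bound factor.

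Oas2 encodes a synthetase with a pair of OAS units that is anchored to membranes. Its brighter probe had a signal of 208 ± 33.0 in Villin-Cre and 14046 ± 1405 in EP4 cKO. The Villin-Cre signal was low but well above background, and the signal in EP4 cKO was 67.4-fold higher, a log2 ratio of 6.07 with a software error of 0.27, which ranged from 5.18 after normexp to 7.11 with scaling to control spots. This was the 12th highest ratio of all genes and the highest among the 5 listed genes measured on both arrays. A second probe with the same accession gave 30.2 ± 30.3 in Villin-Cre and 29.1 ± 13.9 in EP4 cKO, neither of them well above background. The ratio of Oas2 thus rests on 1 of its 2 probes.

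Oas3 encodes the largest synthetase, which prefers long double-stranded RNA. Its probe had 32.1 ± 32.2 in Villin-Cre, not well above background, and 2776 ± 278 in EP4 cKO, well above it. The signal was at least 22.1-fold higher in EP4 cKO, a bound of 4.47 on the log2 scale that was 3.26 after normexp with quantile normalization. The promoter window of Oas3 (chr5:120777610-120777909, minus strand) held 1 match to the ISRE core, from position -75 to position -66, and is shown beside the Oas1 windows because its match differs from theirs in sequence and position.

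Oas3: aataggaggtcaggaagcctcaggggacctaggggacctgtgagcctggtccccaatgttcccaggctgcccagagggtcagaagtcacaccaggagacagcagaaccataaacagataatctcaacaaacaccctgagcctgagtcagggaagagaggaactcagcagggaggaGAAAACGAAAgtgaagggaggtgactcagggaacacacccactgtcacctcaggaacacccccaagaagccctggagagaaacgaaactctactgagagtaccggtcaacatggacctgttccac

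Oasl1 and Oasl2 encode synthetase-like proteins with ubiquitin-like domains at their end. Oasl1 does not make 2-5A and is known to hold back the translation of IRF7, whereas Oasl2 has kept synthetase activity. Oasl1 had 6280 ± 629 in Villin-Cre and 57180 ± 5718 in EP4 cKO, 9.10-fold higher, a log2 ratio of 3.19 with a software error of 0.20. A dimmer Oasl1 probe had 1372 ± 140 and 11890 ± 1189, a log2 ratio of 3.12. Both Oasl1 probes were well above background on both arrays, and their ratios differed by 0.07, less than their combined error of 0.29. Oasl2 had 1639 ± 167 in Villin-Cre and 40566 ± 4057 in EP4 cKO, 24.8-fold higher, a log2 ratio of 4.63 with an error of 0.21. Its ratio ranked 43rd and that of Oasl1 94th of all genes.

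In order of the log2 ratio, Oas2 (6.07) was followed by Oasl2 (4.63), Oas3 (a bound of 4.47), Oasl1 (3.19), Oas1g (1.71) and Oas1a (1.60). Oas2 stood 1.44 above Oasl2, more than the combined software error of 0.34, and Oasl1 stood 1.48 above Oas1g, more than 0.29. Oas1g and Oas1a lay within their error, and the place of Oas3 is not settled because its ratio is a bound. These errors describe single spots of 1 hybridization, so the order holds for these arrays only.

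**Figure D2:**
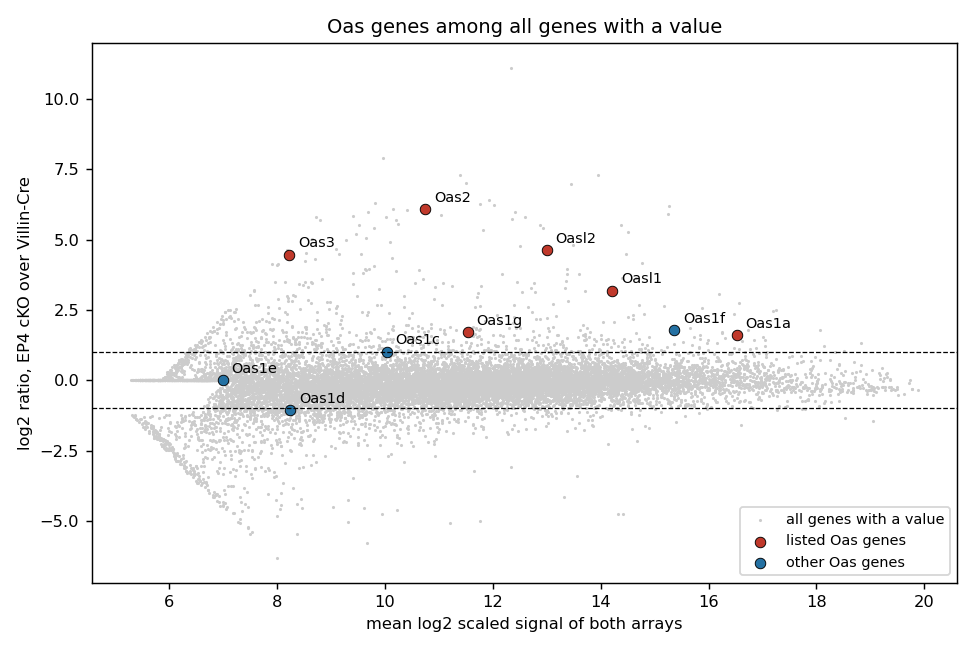
Log2 ratio of EP4 cKO over Villin-Cre against the mean log2 scaled signal of both arrays for all 14668 genes with a value (grey), with the listed Oas genes in red and the other Oas genes in blue. Dashed lines mark 2-fold, and ratios of genes dim on 1 array are bounds. The 6 listed genes lie between 1.60 and 6.07, and Oas1d lies at -1.05.

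Of the 5 windows of listed genes in the promoter table, 3 held the ISRE core (Oas1a, Oas1g and Oas3), against 3.44% of all 32851 windows of this length. A stricter form, GGAAANNGAAAC, was found in 2 of the 5 (Oas1a and Oas1g), against 0.274% of all windows. The GAS motif TTCNNNGAA was found in the window of Oas1a only, on both strands of 1 place, against 8.30% of all windows. In the windows of Oasl1 and Oasl2 these letters were not found. Oas2 and Oas1b have no entry in the promoter table.

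The other Oas genes, set as a list of 5 Oas1 copies outside the 7, did not all share a direction in the main setting. Of 4 with a value, 2 were over 2-fold higher in EP4 cKO and 1 was over 2-fold lower, at a median log2 ratio of 0.51. This median counts Oas1e at 0 and was -0.26 with dim values kept as measured (all 5 genes, 2 higher and 2 lower), 1.02 over the 3 genes well above background on both arrays and 1.42 when scaled to control spots. Oas1f had 22852 ± 2285 in Villin-Cre and 78062 ± 7806 in EP4 cKO, a log2 ratio of 1.77, close to those of Oas1g and Oas1a. Oas1d, known as an oocyte gene without synthetase activity, had 437 ± 53.9 and 210 ± 25.4, a log2 ratio of -1.05. This ratio lay within 2-fold with scaling to the 75th percentile, normexp, loess or a trimmed mean over all spots. The least negative value among these was -0.55, and with scaling to control spots the ratio was -0.02. Oas1e (139 ± 34.2 and 116 ± 18.2) was well above background in EP4 cKO alone and had no fold above 1. Neither probe of Oas1h was well above background.

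On chromosome 5 the Oas genes lie next to each other in one cluster and Oasl2 and Oasl1 form a pair in another. Of the nearest genes with a probe, up to 5 on each side of either group, 18 are reported and 15 had a value, with a median log2 ratio of -0.33. Of these 15, Trafd1, a zinc finger gene that restrains innate immune signaling, was over 2-fold higher (10765 and 23536, a log2 ratio of 1.13), and Dtx1, a Notch pathway gene next to Oas2, over 2-fold lower (397 and 151, -1.40). The 7 neighbours of the Oasl pair with a value ranged from -0.47 to 0.35. Within the Oas cluster itself the ratio of Oas2, at one end, and of Oas1d, at the other, had opposite signs.

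**Figure D3:**
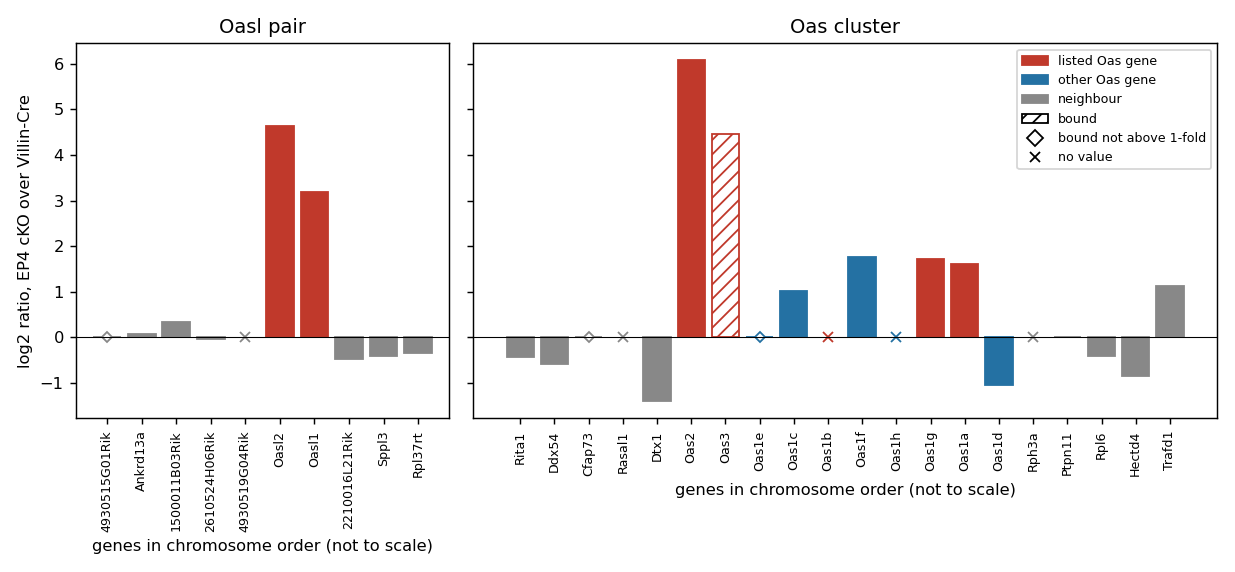
Log2 ratio of EP4 cKO over Villin-Cre for the Oasl pair and the Oas cluster and the reported genes with a probe, up to 5 on each side, in chromosome order and not to scale. Red bars are listed Oas genes, blue bars other Oas genes and grey bars neighbours, hatched bars are bounds, diamonds bounds without a fold above 1 and crosses genes without a value. Oas2, Oas3, Oasl2 and Oasl1 reach 3.19 or more, while Trafd1 is the highest neighbour at 1.13 and Dtx1 the lowest at -1.40.

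Other genes that handle 2-5A are not among the 7 and were read as a list of 3. Pde12, a phosphodiesterase that degrades 2-5A, had 439 and 665 (0.60). Akap7, which also has a 2-5A phosphodiesterase activity, had 88349 and 102072 (0.21), and Abce1, an ATPase known for ribosome recycling that was first described in the 2-5A pathway, had 3891 and 4495 (0.21). None of these 3 genes was over 2-fold higher or lower, and their median was 0.21. All 3 were over 2-fold higher with scaling to the control spots (median 1.24), a setting that raised the median of all genes by 0.97.

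Sensors of foreign RNA and DNA, most of them cytosolic, and their adaptors gave a mixed picture. Of 10 genes with a value, 5 were over 2-fold higher and none over 2-fold lower, at a median log2 ratio of 0.89. With scaling to the control spots 9 of the 10 were over 2-fold higher (median 1.93). Zbp1, a sensor of Z-form nucleic acid, had the highest ratio (2686 and 41402, 3.95). Dhx58, Ddx58 and Ifih1, the RIG-I-like receptors, had 2.21, 1.45 and 1.29, and Tlr3, the endosomal receptor for double-stranded RNA, had 1.12 (0.86 at its lowest over the other settings). Eif2ak2, the double-stranded RNA-activated kinase PKR, had 2397 and 3812, a log2 ratio of 0.67. Cgas, a DNA sensor that makes cyclic GMP-AMP and is related to the synthetases in structure, had 955 and 1129 (0.24). Sting1, the receptor of cyclic GMP-AMP, had 0.28. Mavs, the adaptor of the RIG-I-like receptors, had -0.43.

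Of 8 factors that act on interferon-stimulated promoters, 4 were over 2-fold higher and none over 2-fold lower, at a median log2 ratio of 0.97. The count was 6 with scaling to the control spots (median 2.01), 5 with dim values kept as measured and 3 when probes were averaged. The median of 0.97 counts Irf5, dim in Villin-Cre, at 0, and was 1.36 over the 7 factors measured on both arrays. Of the complex that binds the ISRE, Stat2 had 1.88 (2877 and 10562), which was 0.94 when its probes were averaged, and Irf9 had 1.75 (4563 and 15348). Irf7 had 37247 and 252885, a log2 ratio of 2.76, and Irf1 had 1.36. Irf3, which is active without new synthesis, had -0.35, and Irf2 had 0.14. Thus the ratios of Oas1a and Oas1g lay near those of Stat2 and Irf9, and those of Oas2, Oas3, Oasl2 and Oasl1 were 3.19 or more against 2.76 for Irf7, the highest of the factors in this list.

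Upstream of these, none of the 9 receptor and kinase genes was over 2-fold higher or lower (median log2 ratio 0.26). Ifnar1 had -0.55, Ifnlr1, the receptor chain for type III interferon, had 0.45, and Jak2 had 0.86 (up to 1.02 over the scalings other than to control spots). With scaling to control spots, 7 of the 9 were over 2-fold higher. Of 5 interferon genes, 3 had a value. Ifnl3, a type III interferon, had 281 in Villin-Cre and 710 in EP4 cKO, a log2 ratio of 1.34, and Ifng had 149 and 177 (0.25). Ifnb1 was above background in Villin-Cre alone (a signal of 181) and at least 3.14-fold lower in EP4 cKO. This bound was within 2-fold after normexp or loess (-0.58 as the less negative value) and with scaling to the control spots (-0.61). The Villin-Cre signals of Ifng and Ifnb1 lay close to the lowest signal well above background (125). All 4 genes put in a list of brakes on the response were over 2-fold higher. Isg15 had 5.53, Usp18 a bound of 5.42 (4.30 at its lowest over the other settings), Socs1 2.32 and Socs3 1.69. Whether each of them, Isg15 included, acts as a brake in mouse colon was not tested. The median of the brakes was 3.87, and 2.32 over the 3 measured on both arrays.

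**Figure D4:**
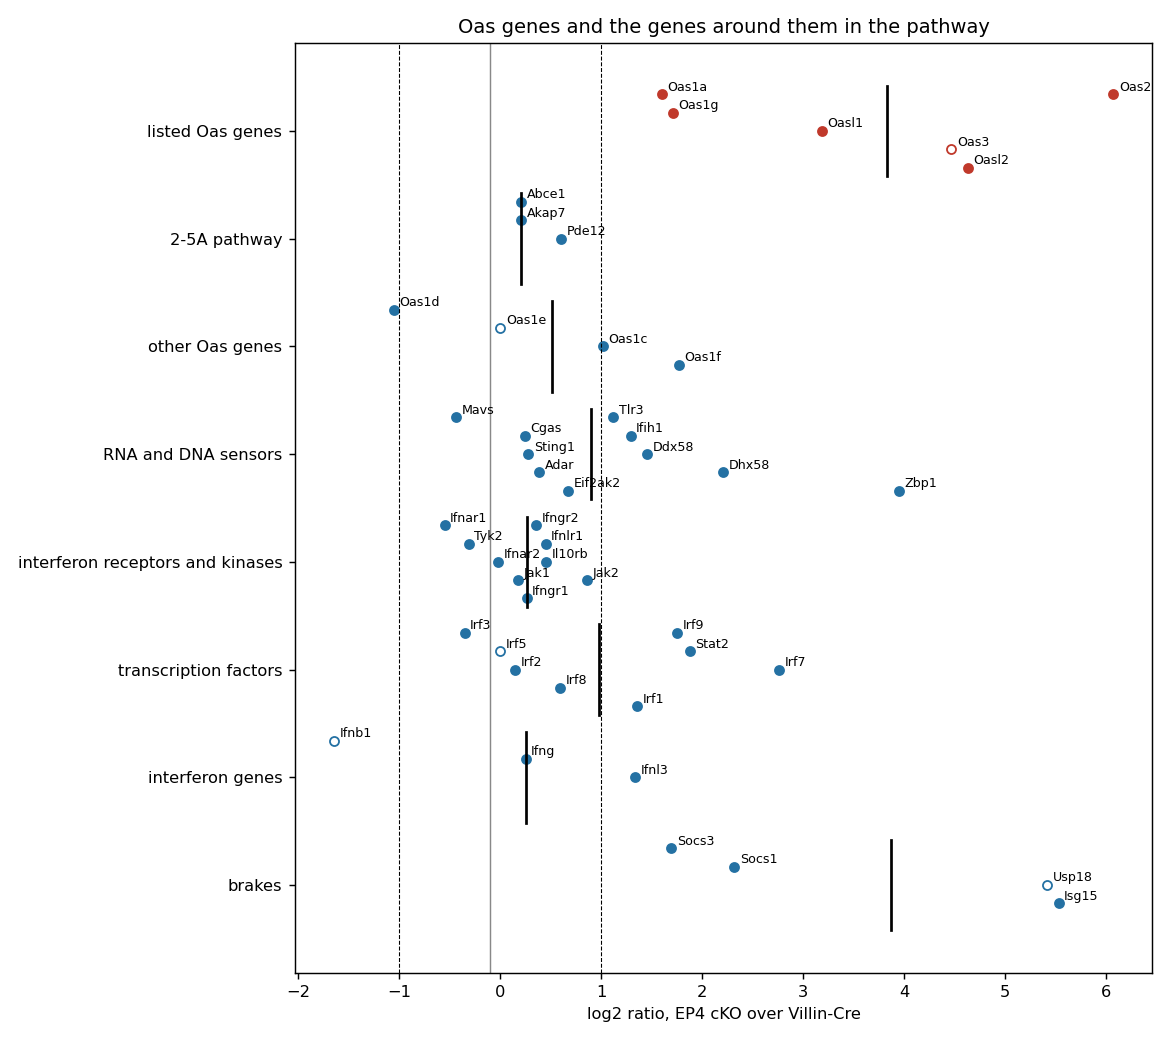
Log2 ratio of EP4 cKO over Villin-Cre for the listed Oas genes (red) and for 7 lists of genes around them in the pathway (blue), 1 point per gene, with open points for bounds and a black bar at the median of each list. Dashed lines mark 2-fold and the grey line the median of all genes (-0.10). The medians run from 0.21 for the 2-5A pathway to 3.83 for the listed Oas genes and 3.87 for the brakes.

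Among the non-member genes outside these lists whose log2 ratio lay nearest to the median of the Oas genes, over the 2 arrays, were Fam43a (3.81), Itln1 (3.79), Slfn4 (3.87) and Gsta2 (3.76), which differed from it by 0.0145 to 0.0636. The likeness is that of a single ratio.

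Cell type markers were read beside these results. Of 11 leukocyte markers, 9 had a value, of which 1 (Itgax, 1.73) was over 2-fold higher and none lower. The count was 2 higher with scaling to the 75th percentile, loess or a trimmed mean over all spots, and 3 with scaling to the control spots. The summed signal of the 11 markers was 254671 in Villin-Cre and 228259 in EP4 cKO, most of it from Siglech (238790 and 213032). What RNA the Siglech probe takes up was not tested, so this sum is not read as an amount of leukocytes. Ptprc had 416 and 813 (0.97, and up to 1.20 over the settings other than control spots), Csf1r had 4874 and 2817, and Adgre1 and Cd79a were not well above background. All 7 colon epithelium markers were measured on both arrays, with summed signals of 1281770 and 1692820 and Krt20 alone past 2-fold (1.80), except that 4 of the 7 were over 2-fold higher with scaling to the control spots. All 3 fibroblast markers were over 2-fold lower (summed signal 10932 and 235), at a median of -5.03 that was -3.32 after normexp, and the bound of Col1a1 ranged from -6.57 to -2.45 over the settings. Of 3 smooth muscle markers, Acta2 was measured on both arrays (0.62), Des in EP4 cKO alone and Myh11 on neither, although the label is whole colon (summed signal 18137 and 27865). Of 4 small intestine markers, Fabp6 had 7779 and 25853 and Defa24 had a bound of 9.16-fold (3.20 on the log2 scale, and 2.17 to 5.19 over the other settings), while Lct and Sis were not well above background (summed signal 7870 and 27029). The part of these differences in the ratios of the Oas genes was not tested.

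The ratios of the Oas genes were followed across 9 other settings of the processing. Each of the 6 genes was over 2-fold higher under every setting that gave it a value. The lowest values were 1.60 for Oas1a, 1.69 for Oas1g, 3.15 for Oasl1, 3.26 for Oas3, 4.5 for Oasl2 and 5.18 for Oas2, and the highest were 2.64, 2.75, 4.22, 6.43, 5.66 and 7.11. The bound of Oas3 moved most, with the lowest value after normexp, where Oas2 also had its lowest value. The highest value of Oas3 came with its dim Villin-Cre value kept, which is no larger than its error (32.1 ± 32.2).

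**Figure D5:**
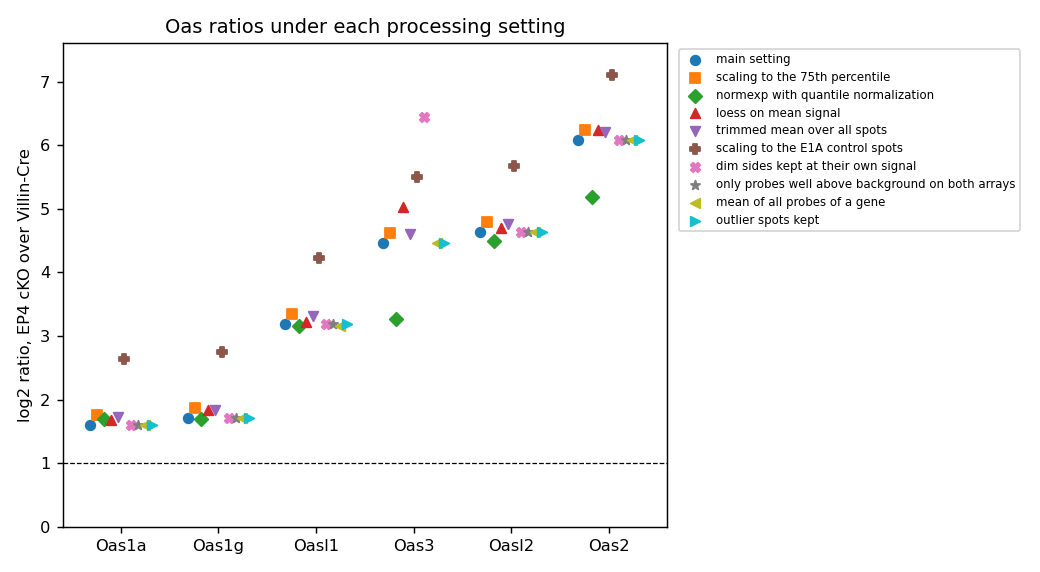
Log2 ratio of EP4 cKO over Villin-Cre of the 6 Oas genes under the main setting (blue circles) and 9 other settings of scaling, background, floor and probe choice, with the dashed line at 2-fold. All points lie above the line, and the order of Oas1a and Oas1g against Oasl1, and of Oasl1 against Oasl2 and Oas2, is the same in each setting, while Oas3 moves from 3.26 to 6.43.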

How the data were processed

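Per the file headers, the authors deposited scanner output of Feature Extraction (12.0.3.1; the submitters' processing notes give 11.5.1.1), in which the intensity of each spot has its background subtracted. Flags and errors were used as deposited. The authors' scaling is not part of these intensities and was repeated here: control spots and outlier spots were left out, spots of a probe were averaged, and each array was scaled to a mean of 2500 after trimming 2% of the probes at each end (factors 3.45 and 2.68). Of 56593 probes, the software placed 25683 (Villin-Cre) and 29177 (EP4 cKO) well above background. The number of arrays limits the precision: no p-value was computed. Accessions were matched without version to RefSeq genes of GRCm38.p6 (32989 probes). The brightest probe stands for a gene. Bounds without a fold above 1 were counted at 0. Normexp (offset 50) used median signals; the loess span was 0.3.

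Named were the listed genes, the genes of the lists, the nearest ratios, the chromosome neighbours, Ptger4 and, chosen after its values were seen, Apol9a and Apol9b. The members, lists and settings were chosen with earlier results of these data known. Some genes of the lists and neighbourhoods are not reported here, and list counts and medians leave them out. The steps were tested on simulated data. Python 3.11.15, numpy 2.4.6, pandas 2.3.3, statsmodels 0.14.6, matplotlib 3.10.9, R 4.3.3 and limma 3.58.1 were used.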

Additional observations from a re-analysis of the deposited data

How the results depend on the processing

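The count of Oas genes over 2-fold higher was 6 under all settings but one, including thresholds of 1.5-fold and 3-fold, and 5 of 5 when a value on both arrays was required, which leaves out Oas3. The median log2 ratio of the family (3.83) was 3.98 with scaling to the 75th percentile, 3.21 after normexp with quantile normalization, 3.96 after loess on mean signal, 3.96 with a trimmed mean over all spots, 4.86 with scaling to the E1A control spots, 3.91 with dim sides kept at their own signal and 3.19 over probes well above background on both arrays. These settings moved the median of all genes by 0.10, 0.10, 0.13, 0.10, 0.97, -0.27 and -0.05. The -0.27 is over 22909 genes, with genes dim on both arrays included. The mean of all probes and outlier spots kept moved the median of the family by less than 0.0337, the median spread (SD, log2) among repeated spots, from 163 probes with 10 spots each. With the stricter ISRE form, 2 in place of 3 promoter windows of listed genes had a match. Signal over background limits Oas3, Oas2, Oas1e and Ifnb1, and the number of arrays limits every value.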

Other observations

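Across the promoter table, 434 genes with the ISRE core in their window had a value. Of these, 65 (15.0%) were over 2-fold higher in EP4 cKO and 30 (6.91%) over 2-fold lower (median log2 ratio 0), while 487 of 11253 genes without a match (4.33%) were over 2-fold higher (median -0.11). With the stricter form GGAAANNGAAAC, 20 of 49 genes (40.8%) were over 2-fold higher and 5 over 2-fold lower (median log2 ratio 0.55), against 4.57% higher among genes without it. With the GAS motif, 54 of 1000 genes (5.40%) were over 2-fold higher and 63 over 2-fold lower (median -0.12), against 4.66% higher without it. The search was made after the ratios were known and carries no test, and genes of one family share their windows. The listed Oas genes, chosen with their ratios known, were not left out of these counts. Oas1a, Oas1g and Oas3 are among the 65, Oas1a and Oas1g among the 20, and Oas1a among the 54. Oas1c is among the 65 and the 20 as well.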
